A study of Saccharomyces cerevisiae with 18 samples.

Results

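The comparison described here is that of the budding yeast strain fes1ΔS with wild type (WT), both grown at 25 °C without heat shock, across all genes that passed a filter on low counts. Its members are the 3 libraries of fes1ΔS and the 3 libraries of WT, 6 of the 18 samples of the series, and 5719 of the 7130 genes in the count table. By the labels, fes1ΔS (strain CAY1290) carries the genotype fes1-deltaS, which leaves out the S form of FES1, and WT is strain CAY1015. At 25 °C the series also holds 3 libraries labelled fes1Δ (CAY1221, the whole gene deleted) and 3 of fes1ΔL (CAY1256, the L form left out). All were log-phase cells of Saccharomyces cerevisiae, in the glucose-rich medium YPD. Each group is a single named strain, and its 3 libraries come from independent RNA isolations. The p-values therefore measure the spread between isolations, estimated over all 12 libraries at 25 °C and not over fes1ΔS and WT alone.

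Fes1 is a nucleotide exchange factor of the cytosolic Hsp70 chaperones: it makes Hsp70 release ADP, and with it the protein that Hsp70 holds. Alternative splicing gives a short form, which works in the cytosol, and a long form, which is found in the nucleus. Hsp70 chaperones bind unfolded proteins, help them to fold or pass them on for degradation, and also hold back Hsf1, the transcription factor that switches on chaperone genes when cells are stressed.

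Total counts were 10246711, 8459851 and 8415183 in the fes1ΔS libraries, and 9321066, 8660676 and 7994723 in the WT libraries. Levels below are CPM, counts scaled to a common library size and corrected for library composition, and a fold change is that of fes1ΔS over WT. A gene is called when its adjusted p from edgeR's quasi-likelihood test, with Benjamini-Hochberg adjustment over all 5719 genes, lies under 0.05. The words rose, fell, higher and lower are used of gene groups only for called genes. Whether the groups overlap is given as a description and not as a test. In SSB1, SSB2 and FRE1, for example, the groups did not overlap, yet these genes were not called. Replicate libraries were not alike within sampling noise, with values of chi-square over its degrees of freedom between 2.64 and 10.62 for the pairs of both groups, and each library was therefore counted as 1 sample. Principal components were taken over the 500 genes that varied most among the 12 libraries. On the first, with 50.3% of the variance of these genes, the fes1ΔS libraries lay from 3.09 to 4.37 and the WT libraries from -9.44 to -7.57. On the second, with 15.1%, they lay from -8.99 to -7.4 and from 1.78 to 2.48.

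The FES1 locus itself gave the strongest signal of the comparison. FES1 (YBR101C, chromosome II) had 15136, 11442 and 11173 counts in fes1ΔS, against 1579, 1403 and 1251 counts in WT. YBR099C, a counted feature whose systematic name places it beside FES1 and which the RefSeq gene table of assembly R64 does not hold, had 4274, 3005 and 3056 counts in fes1ΔS, against 86, 48 and 54 counts in WT. In both, every fes1ΔS library lay far above every WT library, and the groups did not come near each other. The fold change was 9.08 for FES1 (log2 3.18, SE 0.07, edgeR adjusted p = 1.88e-17) and 55.8 for YBR099C (log2 5.80, SE 0.12, edgeR adjusted p = 1.42e-16), the largest of all tested genes. In bulk RNA, fewer cells that express a gene and less RNA of it per cell cannot be told apart.

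MMS4 (YBR098W), a subunit of a DNA structure-specific nuclease, went the other way. It is the next gene to FES1 in the R64 annotation and lies on the opposite strand, so that both genes are transcribed towards each other. MMS4 had 117, 88 and 75 counts in fes1ΔS, against 240, 226 and 213 counts in WT. All 3 fes1ΔS values lay below all 3 WT values, and the log2 fold change was -1.25 (SE 0.12, edgeR adjusted p = 5.17e-07). EXO84, the next gene on the other side of FES1 and a subunit of the exocyst, had a log2 fold change of -0.20 and was not called (edgeR adjusted p = 0.059). The libraries were made with a strand-marking kit, but the sources used here do not say whether strand was used in counting, so reads of overlapping features on opposite strands cannot be told apart. Gene counts do not show which part of FES1 the reads cover or which form they come from.

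FES1 and its neighbours differed between the strains in different ways. FES1 had 1390, 1358 and 1427 counts in fes1ΔL and 1335, 1251 and 1249 counts in the libraries labelled fes1Δ, all near the WT counts. The label fes1Δ names a deletion of the whole gene, and what the reads counted for FES1 there come from was not tested. YBR099C was intermediate in these strains, with 159, 199 and 181 counts in fes1ΔL and 496, 555 and 461 counts in the libraries labelled fes1Δ. Both exceeded each of the WT libraries, and both lay under each of the fes1ΔS libraries. For MMS4 the fold change against WT was the same, -1.25 on the log2 scale, in fes1ΔS and in the libraries labelled fes1Δ. URA3, a common selection marker, had 3, 1 and 0 counts in fes1ΔS and 0, 1 and 0 counts in WT, so no library of either group held more than 3 counts of it. The libraries labelled fes1Δ had 1868, 1866 and 1590 counts of URA3, and fes1ΔL had 0 in each library.

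**Figure D1:**
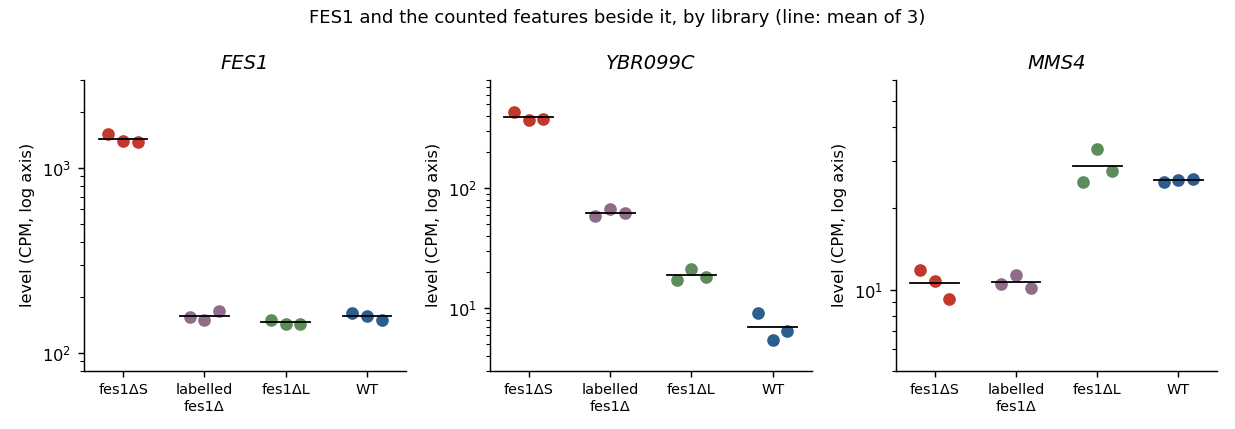
Level in CPM (log axis) of FES1, YBR099C and MMS4 in each library of fes1ΔS, the libraries labelled fes1Δ, fes1ΔL and WT, with points for libraries and a line at the mean of 3. FES1 stands apart in fes1ΔS alone (1377 to 1526 CPM, against 150 to 165 CPM in WT), YBR099C has its lowest levels in WT, and MMS4 is low in fes1ΔS and in the libraries labelled fes1Δ.

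Of the 5719 genes, 184 were called higher in fes1ΔS (3.22%) and 197 lower (3.44%), and the median log2 fold change of all tested genes was 0.00. These shares are the background for each count of called list members below. The 2 directions differed in size. Among the genes called higher, 37 changed at least 2-fold, 42 changed between 1.5-fold and 2-fold and 105 changed less, and among those called lower the counts were 13, 29 and 155. The median log2 fold change was 0.49 for the genes called higher and -0.34 for those called lower. By limma on log2(FPKM + 1), over the 2819 genes with usable FPKM values, 58 were called higher and 150 lower, where edgeR adjusted over the matched genes called 94 higher and 102 lower. In all, 50 genes (0.874%) were called and changed at least 2-fold. The count lower was 125 without WT replicate 1, 115 without fes1ΔS replicate 2 and 123 without fes1ΔS replicate 3.

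The called genes were also summed as a share of each library. The genes called higher took 18.7, 18.4 and 18.3% of the counts in the fes1ΔS libraries and 13.4, 12.6 and 13.2% in the WT libraries. Those called lower took 3.28, 3.08 and 3.14% in fes1ΔS and 4.47, 4.25 and 4.44% in WT. The 17 Hsf1 targets alone summed to between 42346 and 43274 CPM in fes1ΔS and to between 15094 and 16840 CPM in WT. The shares of called genes were computed over genes chosen by the same comparison. The Hsf1 list was not chosen by its calls, but it was written with earlier results of these data known. Both are given only as a description.

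**Figure D2:**
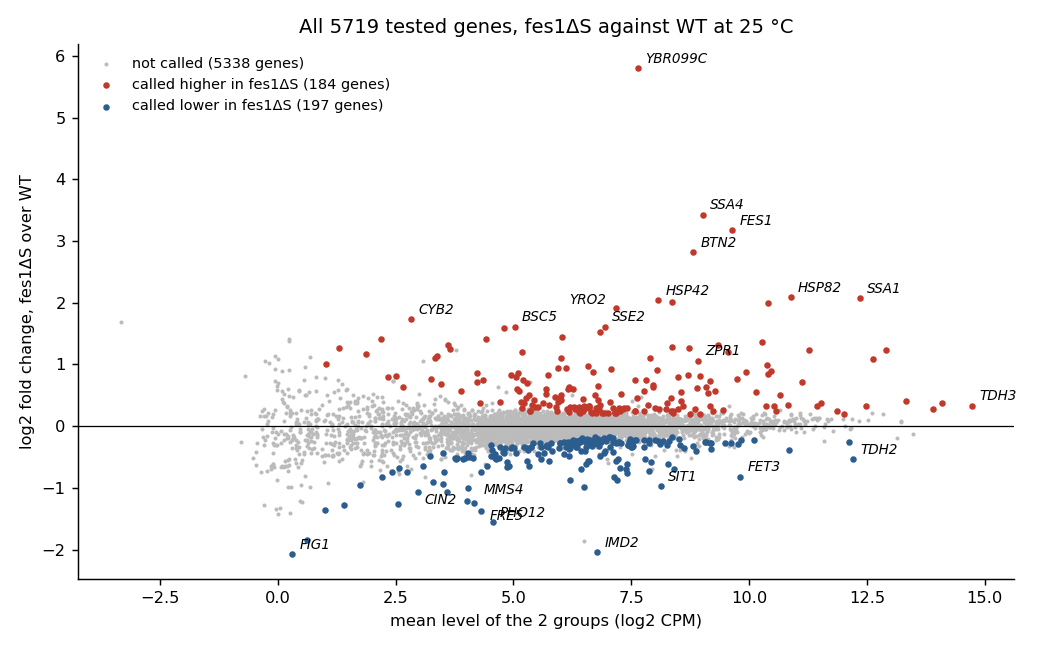
Each point is 1 of the 5719 tested genes, with the mean level of fes1ΔS and WT in log2 CPM on the horizontal axis and the log2 fold change of fes1ΔS over WT on the vertical axis; called genes are red (184 higher) or blue (197 lower). The genes changed at least 2-fold lie mostly above the zero line, with YBR099C, SSA4, FES1 and BTN2 at the top and IMD2 and FIG1 at the bottom.

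Chaperone genes of the cytosolic Hsp70 machine rose together. SSA1 and SSA2, the main cytosolic Hsp70s of growing cells, and SSA3 and SSA4, the stress-inducible ones, were all called higher, as were the Hsp110 exchange factors SSE1 and SSE2. SSA1 had 8669, 8211 and 8407 CPM in fes1ΔS, against 2286, 1791 and 1927 CPM in WT, a log2 fold change of 2.07. SSA2 had 10862, 10870 and 10443 CPM in fes1ΔS, against 4703, 4560 and 4334 CPM in WT, a log2 fold change of 1.24. In each of these 6 genes all fes1ΔS libraries lay above all WT libraries. SSA1 and SSA2 are near-identical, and so in part are SSA3 and SSA4, so the division of reads within each pair is uncertain.

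The stress-inducible Hsp70 genes differed in the size of their change. SSA4 had 1011, 892 and 951 CPM in fes1ΔS, against 92.4, 84.6 and 88.3 CPM in WT. SSA3 had 70.4, 69.9 and 66.6 CPM in fes1ΔS, against 50.9, 50.4 and 47.1 CPM in WT. Both pairs of groups were fully separate, but the log2 fold change was 3.43 for SSA4 (SE 0.08, edgeR adjusted p = 1.42e-16) and 0.48 for SSA3 (SE 0.06, edgeR adjusted p = 3.23e-05). SSE2 had 197, 177 and 182 CPM in fes1ΔS, against 69.4, 49.4 and 63.4 CPM in WT (log2 1.61), and its constitutive paralog SSE1 had a log2 fold change of 1.23.

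The Hsp70s of ribosomes and most exchange factors outside the cytosol were not called. SSB1 and SSB2, Hsp70s that bind nascent chains at the ribosome, had log2 fold changes of 0.11 and 0.19 (edgeR adjusted p = 0.385 and 0.095). SSZ1, their partner, had 0.11, and SNL1, a membrane-bound exchange factor, had 0.09. Among the organelle members, KAR2 of the endoplasmic reticulum (0.85) and SSC1 of mitochondria (0.72) were called higher, whereas LHS1 and SIL1, the exchange factors of Kar2, had -0.09 and -0.06, and MGE1, that of Ssc1, had -0.07. Of the 15 Hsp70 and exchange factor genes outside the Hsf1 list, 6 were called higher, 0 lower and 9 were not called, and their median log2 fold change was 0.11, beside 3.22% called higher and a median of 0.00 over all genes.

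J-domain proteins deliver substrates to Hsp70, and the called ones were of the cytosol, of mitochondria and of the endoplasmic reticulum. YDJ1, the most general cytosolic J-domain protein, had 1726, 1767 and 1791 CPM in fes1ΔS, against 914, 892 and 847 CPM in WT (log2 0.99). SIS1, the essential one, had a log2 fold change of 1.20, APJ1 had 1.10 and MDJ1, the mitochondrial one, also had 1.10. HLJ1, anchored in the membrane of the endoplasmic reticulum, had 0.44. Of the 20 tested J-domain genes, 5 rose, 1 fell (ERJ5, of the endoplasmic reticulum like HLJ1, at -0.25) and 14 were not called, and the median of the list was -0.01. The shares called were 25% higher and 5% lower, beside 3.22% and 3.44% over all genes. Of these 6 calls, that of ERJ5 was lost without WT replicate 1 or fes1ΔS replicate 1 or 3, and the others held without any 1 library.

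Hsp90 receives substrates from Hsp70, and part of its cochaperones moved with it. HSP82, the inducible Hsp90 gene, had 3020, 3121 and 3009 CPM in fes1ΔS, against 818, 660 and 674 CPM in WT. HSC82, the constitutive and near-identical copy, had 8633, 8696 and 8408 CPM in fes1ΔS, against 4145, 4222 and 3713 CPM in WT. The groups did not overlap in either gene, and the log2 fold changes were 2.09 and 1.09. STI1, which links Hsp70 to Hsp90, rose by 1.36 on the log2 scale, the prolyl isomerase gene CPR6 by 1.31, and the ATPase activators AHA1 and HCH1 by 1.29 and 0.91. The remaining 8 of the 14 genes in the list were not called, among them the cochaperone genes SBA1 (log2 -0.03), CDC37 (0.06, and -0.07 by limma on FPKM) and CNS1 (-0.10).

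Genes for handling aggregates gave several of the largest fold changes. HSP104, the cytosolic disaggregase, had 2265, 2092 and 2095 CPM in fes1ΔS, against 575, 495 and 548 CPM in WT (log2 2.00). BTN2 and CUR1, related factors that sort misfolded proteins to storage sites, had log2 fold changes of 2.82 and 1.52. HSP42, a small heat shock protein that gathers aggregates, had 474, 409 and 420 CPM in fes1ΔS, against 121, 76.8 and 119 CPM in WT (log2 2.04, SE 0.18). Its WT libraries were less alike than those of HSP104, and the groups were still far apart. Of the 9 genes in this list, 7 rose, 1 fell and 1 was not called, and the median was 1.44.

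HSP31 and HSP12 departed from the rest of that list. HSP31, a methylglyoxalase of the DJ-1 family, fell, with 19.9, 22.7 and 25.5 CPM in fes1ΔS, against 37.4, 32.8 and 37.5 CPM in WT (log2 -0.67, edgeR adjusted p = 5.23e-04). HSP12, a small membrane-associated stress protein, had 78.4, 149 and 126 CPM in fes1ΔS, against 174, 47.3 and 64 CPM in WT. Its groups overlapped widely, and it was not called (log2 0.29, SE 0.65, and -0.04 without WT replicate 2). HSP26, a small heat shock protein, was called at a log2 fold change of 1.44 (SE 0.30, edgeR adjusted p = 0.0228), but in the fits without a library its adjusted p ran from 0.0172 to 0.101 and only that without WT replicate 3 kept the call.

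**Figure D3:**
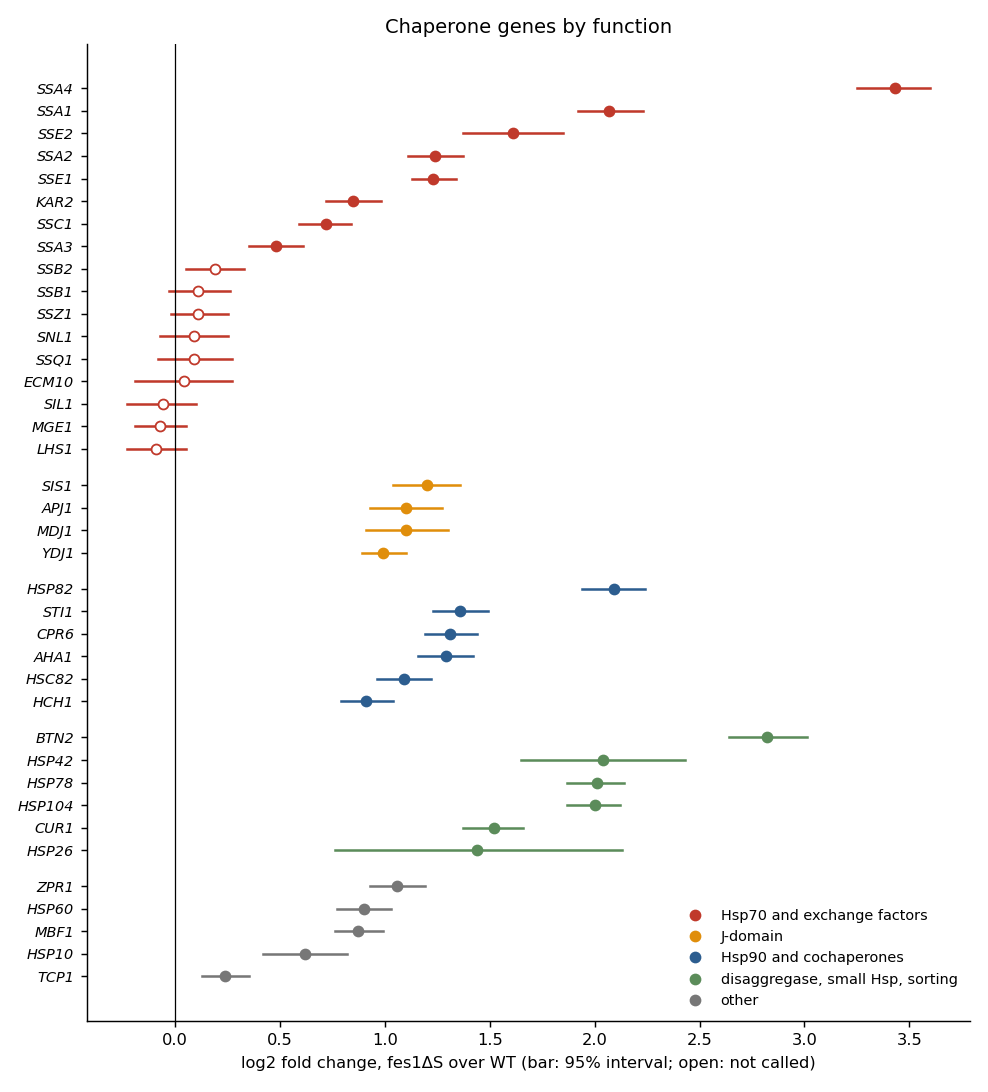
Log2 fold change of fes1ΔS over WT for chaperone genes grouped by function, with bars for the 95% interval and open points for genes that were not called. The Hsp70 group runs from SSA4 at 3.43 down to LHS1 at -0.09, the J-domain genes shown lie between 0.99 and 1.20, and HSP26 has the widest interval.

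Folding genes of organelles rose in part. HSP60, the mitochondrial chaperonin, had 1910, 1797 and 1795 CPM in fes1ΔS, against 1044, 924 and 980 CPM in WT (log2 0.90), and its cochaperonin gene HSP10 had a log2 fold change of 0.62. With SSC1, MDJ1 and the mitochondrial disaggregase gene HSP78 (2.01), 5 of the 20 genes for mitochondrial chaperones and proteases rose and 0 fell, with a median of 0.07. In the endoplasmic reticulum, KAR2 and the thiol oxidase gene ERO1 (0.75) rose, 2 genes fell (1 in all but the fit without WT replicate 2) and 21 of the 25 were not called, with a median of -0.06. HAC1, the transcription factor of the unfolded protein response there, had 282, 265 and 282 CPM in fes1ΔS, against 248, 243 and 249 CPM in WT. All fes1ΔS libraries lay slightly above, and HAC1 was not called (log2 0.16, edgeR adjusted p = 0.13).

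Genes of protein degradation and of the cytosolic chaperonin gave few calls. UBI4, the polyubiquitin gene, had 551, 543 and 512 CPM in fes1ΔS, against 324, 262 and 317 CPM in WT (log2 0.83), and the ubiquitin-conjugating enzyme gene UBC4 had a log2 fold change of 0.57. These 2 kept their calls without any 1 library, whereas the count of called ubiquitin genes, 5 of 29, was 2 or 3 in each of those fits. The list's median was 0.09. RPN4, the activator of proteasome genes, had 317, 298 and 307 CPM in fes1ΔS, against 199, 184 and 197 CPM in WT (log2 0.67). It was the only called gene of the 39 in the proteasome list, which it was put in as its regulator, and the median of that list was 0.05. In the list of the CCT chaperonin and prefoldin, TCP1 rose by 0.24, 2 of the 16 genes fell and the median was 0.03. Without WT replicate 1 or fes1ΔS replicate 1 none of that list fell, and without WT replicate 2 or fes1ΔS replicate 2 1 did.

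HSF1 itself was not called, with 105, 104 and 101 CPM in fes1ΔS, against 95.4, 91.1 and 103 CPM in WT (log2 0.10, edgeR adjusted p = 0.362). All 17 Hsf1 targets in the list were called higher, with log2 fold changes from 0.87 for the coactivator gene MBF1 to 2.82 for BTN2 and a median of 1.31, beside 3.22% called higher over all genes. The count was 17 in every fit without a library. Of the 21 stress transcription factor genes, RPN4 and MSN4 (log2 0.43) rose and CIN5 fell (log2 -0.51), the last with its call lost without WT replicate 1 or 3 or fes1ΔS replicate 3. MSN4 encodes an activator of general stress genes.

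**Figure D4:**
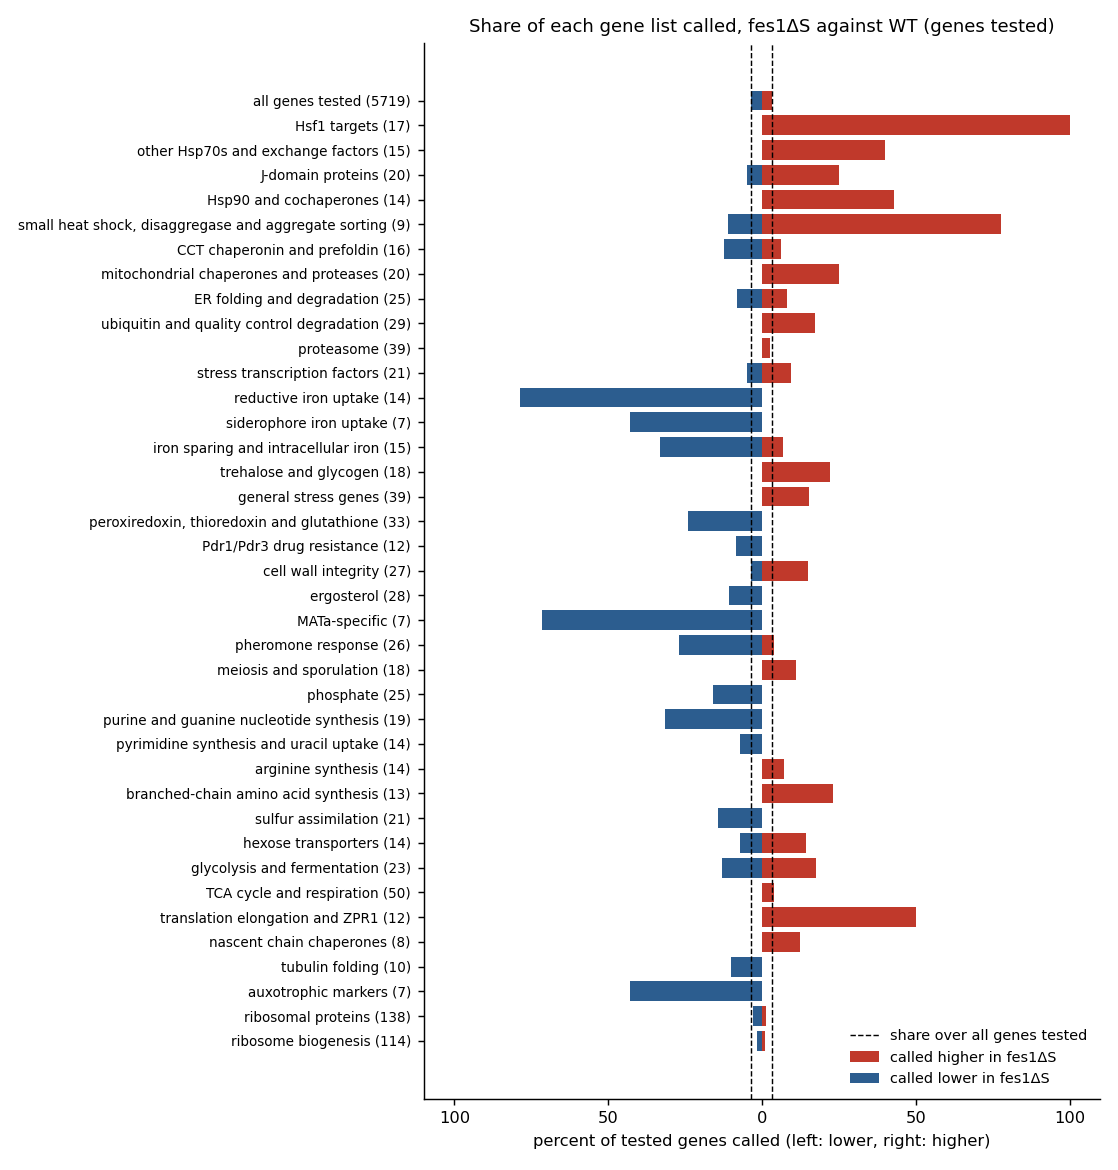
Percent of the tested genes of each list called lower (left, blue) or higher (right, red) in fes1ΔS against WT, with the number tested in brackets and dashed lines at the shares over all genes, 3.44% and 3.22%. Hsf1 targets reach 100% higher, reductive iron uptake genes 78.6% lower and MATa-specific genes 71.4% lower, whereas ribosomal protein genes stay near the dashed lines.

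General stress genes outside the chaperones showed a mixed picture. YRO2, a membrane protein gene of stressed cells, had 213, 236 and 238 CPM in fes1ΔS, against 73.8, 46.7 and 59.7 CPM in WT (log2 1.92, SE 0.14). YGP1, a secreted glycoprotein gene, had a log2 fold change of 0.73. Of the 39 tested genes of the list 6 rose and 0 fell, but the median was -0.03, and the count of genes called higher was 2 without fes1ΔS replicate 1 and 3 without fes1ΔS replicate 2. Among the 18 trehalose and glycogen genes 4 rose, among them GPH1, the glycogen phosphorylase (0.74), and GLC3, the branching enzyme (0.51), and the median was 0.17. TPS1, which makes trehalose phosphate, was not called (log2 0.22, edgeR adjusted p = 0.177).

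Some antioxidant genes fell. Of 33 genes listed under peroxiredoxins, thioredoxins and glutathione, 8 fell and 0 rose, beside 3.44% called lower over all genes, and the median was -0.18. The 8 include ATR1 (log2 -0.45), a transporter gene outside these families. TSA1, the main cytosolic peroxiredoxin, had 1540, 1605 and 1610 CPM in fes1ΔS, against 2312, 1921 and 2015 CPM in WT (log2 -0.39). GPX2, a glutathione peroxidase gene, had a log2 fold change of -0.61 and MXR1, a methionine sulfoxide reductase gene, one of -0.43. Neither group of libraries overlapped the other for TSA1, but against fes1ΔL its log2 fold change was -0.15 and it was not called (edgeR adjusted p = 0.278). The count of genes that fell was 5 without WT replicate 1 or 3 or without fes1ΔS replicate 2 or 3.

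Among the lists, reductive iron uptake had the most genes called lower. Yeast takes up iron either by reducing it at the surface and passing it through an oxidase and permease pair, or bound to siderophores, and both routes are switched on by the factor Aft1 when iron is short. FET3, the oxidase, had 724, 642 and 582 CPM in fes1ΔS, against 1118, 1114 and 1202 CPM in WT. FTR1, the permease that works with it, had 283, 242 and 252 CPM in fes1ΔS, against 393, 412 and 452 CPM in WT. Every fes1ΔS library lay below every WT library in both genes, and the log2 fold changes were -0.82 and -0.69 (edgeR adjusted p = 5.18e-04 and 1.35e-06).

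The other steps of the reductive route showed the same direction. The reductase genes FRE2, FRE3 and FRE5 fell by 0.75, 0.57 and 1.37 on the log2 scale, and CCC2 and ATX1, which bring copper to Fet3, by 0.57 and 0.65. FRE1, the main surface reductase, was not called (log2 -0.51, edgeR adjusted p = 0.0526), although its groups did not overlap. It was called by DESeq2 (adjusted p = 0.027) and in a fit restricted to fes1ΔS and WT (edgeR adjusted p = 8.77e-05). Of the 6 fits without a library, 1 called it. In all 11 of 14 reductive genes fell and 0 rose, with a median of -0.54, beside 3.44% called lower and a median of 0.00 over all genes. Without fes1ΔS replicate 2 or 3 the count was 7, and the genes with the smallest changes, such as FTH1 and FET5, lost their calls in most fits without a library.

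Siderophore genes were more variable between libraries. SIT1, a transporter, had 234, 168 and 164 CPM in fes1ΔS, against 370, 335 and 408 CPM in WT (log2 -0.97). The transporter genes ENB1 and ARN1 had log2 fold changes of -0.72 and -0.70 and were called too. FIT3, a cell wall mannoprotein that retains siderophores, had 575, 304 and 418 CPM in fes1ΔS, against 573, 320 and 733 CPM in WT. Its groups overlapped, as did those of FIT1, and neither was called. The log2 fold change of FIT1 was -0.25, and 0.09 without WT replicate 3. WT replicate 2 was the lowest WT library and fes1ΔS replicate 1 the highest fes1ΔS library in all 7 genes. In all 3 of 7 fell, with a median of -0.70, and all 3 kept their calls without any 1 library. ENB1 and ARN1 lost theirs in a fit restricted to fes1ΔS and WT (edgeR adjusted p = 0.0742 and 0.058).

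Genes for sparing and storing iron followed in part. TIS11, which degrades messages of iron-using proteins, had 76.3, 49.2 and 53.7 CPM in fes1ΔS, against 117, 101 and 142 CPM in WT (log2 -0.99), and lost its call in the fit restricted to both groups (edgeR adjusted p = 0.0767). HMX1, the heme oxygenase, had 9.17, 12.4 and 11.2 CPM in fes1ΔS, against 22.9, 17.6 and 24.9 CPM in WT, and fell by 1.00 on the log2 scale. CTH1, a relative of TIS11, rose, with 129, 127 and 124 CPM in fes1ΔS, against 93.2, 96.3 and 91.8 CPM in WT (log2 0.43). The groups did not overlap in these 3 genes. Of the 15 genes 5 fell and 1 rose, and the median was -0.24. The count that fell was 2 without fes1ΔS replicate 2 and 3 without fes1ΔS replicate 3.

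**Figure D5:**
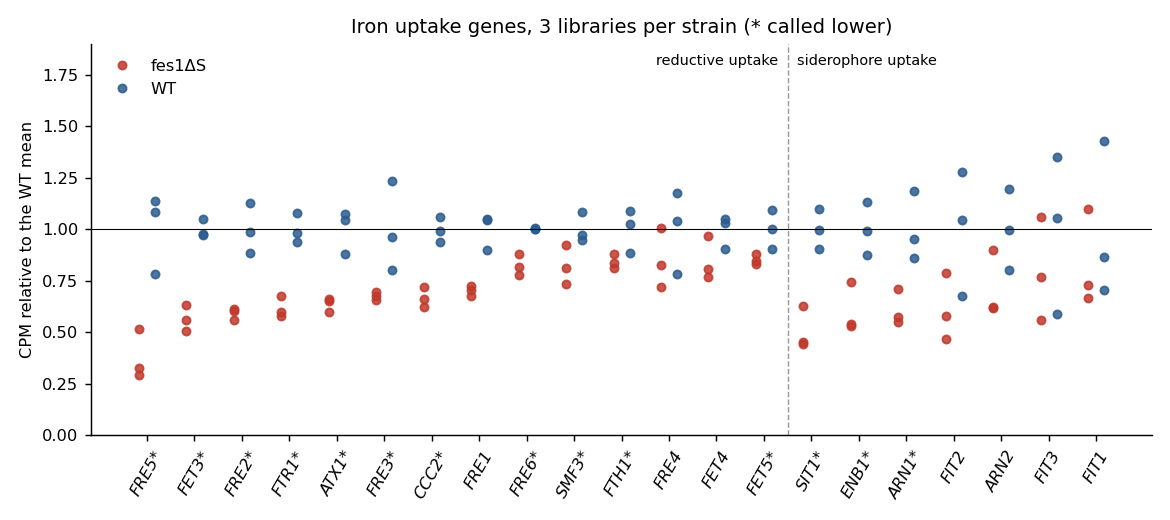
Level of each iron uptake gene in each library, relative to the mean of the WT libraries, with fes1ΔS (red) left of WT (blue); a star marks genes called lower. In the reductive group the red points lie below the blue ones for most genes, whereas FIT1, FIT2, FIT3 and ARN2 overlap.

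Part of the mating genes fell. The libraries expressed a-type genes. Of the 4 α-type marker genes 2 passed the filter, and STE3, the pheromone receptor of α cells, had 2.1 to 2.32 CPM in fes1ΔS and 1.8 to 2.14 CPM in WT. SAG1, the other that passed, was well expressed, with 528, 395 and 415 counts in fes1ΔS, against 501, 450 and 530 counts in WT. It was not called (log2 -0.12). The 7 a-specific genes summed to between 1247 and 1315 CPM in fes1ΔS and to between 1550 and 1764 CPM in WT. STE2, the α-factor receptor, had 534, 491 and 504 CPM in fes1ΔS, against 596, 715 and 662 CPM in WT (log2 -0.37). MFA2, an a-factor gene, had 173, 183 and 190 CPM in fes1ΔS, against 279, 262 and 252 CPM in WT (log2 -0.54). All fes1ΔS libraries lay below all WT libraries in both. STE6, the exporter of a-factor, had a log2 fold change of -0.07 and was not called. In all 5 of 7 a-specific genes fell, with a median of -0.39, and 4 or 5 fell in each fit without a library. The 4 α-type markers, with those that did not pass the filter, summed to between 50.9 and 55.6 CPM in fes1ΔS and between 54.1 and 66 CPM in WT. Most of that sum came from SAG1.

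Among 26 pheromone response genes 7 fell, 1 rose and 18 were not called, with a median of -0.12. The shares called were 26.9% lower and 3.85% higher, beside 3.44% and 3.22% over all genes. AGA1, the anchor of the mating agglutinin, had 65.3, 64.6 and 68.7 CPM in fes1ΔS, against 87.7, 119 and 114 CPM in WT (log2 -0.69), with no overlap. FIG1, a gene induced by pheromone, had the lowest log2 fold change of the table, -2.08 (SE 0.49), at levels of 0.245 to 0.74 CPM in fes1ΔS and 1.57 to 2.59 CPM in WT, and its call was lost without fes1ΔS replicate 1 or 2 (edgeR adjusted p = 0.0581 and 0.0658). Each fit without a library gave fewer genes lower, between 1 without fes1ΔS replicate 1 and 5 without WT replicate 1. The list of meiosis and sporulation genes summed to 123, 122 and 121 CPM in fes1ΔS, against 113, 108 and 109 CPM in WT, with no overlap. Of its 18 tested genes 2 rose, REC104 and HOP1, genes of meiotic recombination, at 0.81 and 0.63, and 0 fell. The share called higher was 11.1%, beside 3.22% over all genes. The count that rose was 0 without fes1ΔS replicate 3 and 1 without WT replicate 2, WT replicate 3 or fes1ΔS replicate 1. The 7 genes fixed as markers of sporulating diploids summed to between 36 and 42.6 CPM in fes1ΔS and between 33.2 and 37.8 CPM in WT.

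Purine synthesis held the second lowest fold change of the table. IMD2, an IMP dehydrogenase of guanine nucleotide synthesis, had 49.6, 40.8 and 37.7 CPM in fes1ΔS, against 175, 202 and 152 CPM in WT (log2 -2.04, SE 0.14, edgeR adjusted p = 1.05e-06). Its paralog IMD3 had 331, 346 and 356 CPM in fes1ΔS, against 433, 477 and 410 CPM in WT (log2 -0.35). Both were fully separate between the groups, and since the IMD genes are closely alike, reads may have been divided between them. ADE2, an enzyme of purine synthesis, and ADE12, one of its adenine branch, had log2 fold changes of -0.34 and -0.31. Of the 19 genes 6 fell and 0 rose, with a median of -0.12, and between 4 and 7 fell without a library. The 6 were 31.6% of the list, beside 3.44% called lower over all genes.

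Amino acid genes moved by pathway in different directions. ILV2, the first enzyme of valine and isoleucine synthesis, had 669, 650 and 664 CPM in fes1ΔS, against 424, 454 and 393 CPM in WT (log2 0.64), and LEU4, the first step towards leucine, had a log2 fold change of 0.45. Of the 13 branched-chain genes 3 rose and 0 fell, with a median of 0.18. The 3 were 23.1% of the list, beside 3.22% called higher over all genes. Without WT replicate 2, 5 rose, and 6 rose in the fit restricted to both groups. SAM2, an S-adenosylmethionine synthetase, fell, with 148, 130 and 127 CPM in fes1ΔS, against 230, 204 and 188 CPM in WT (log2 -0.62), and SAM3, the transporter of S-adenosylmethionine, fell by 0.41. Of 21 sulfur genes 3 fell (14.3%, beside 3.44% over all genes) and 0 rose, with a median of -0.07. The groups did not overlap in ILV2, SAM2 or SAM3.

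A few phosphate genes fell. PHO11, a secreted acid phosphatase, had 8.67, 7.58 and 7.27 CPM in fes1ΔS, against 13.9, 14.5 and 16.6 CPM in WT (log2 -0.93). PHO89, a phosphate transporter, had 3.73, 3.18 and 3.33 CPM in fes1ΔS, against 7.85, 9.57 and 7.33 CPM in WT (log2 -1.26). The groups were separate in both, but against fes1ΔL the log2 fold changes were -0.24 and 0.06 (edgeR adjusted p = 0.533 and 0.953). PHO84, the main high-affinity transporter, had 52.7, 39.4 and 23.1 CPM in fes1ΔS, against 126, 152 and 147 CPM in WT, and was not called (log2 -1.86, SE 0.78, edgeR adjusted p = 0.22). Of 25 phosphate genes 4 fell against WT (16%, beside 3.44% over all genes), with a median of -0.10, and 0 were called against fes1ΔL. In fes1ΔL against WT, which measures the difference between those comparisons, 1 phosphate gene was called lower. The fit restricted to fes1ΔS and WT called 9 lower, PHO84 among them (edgeR adjusted p = 0.0406). Reads of PHO11 may have been divided with its close copy PHO12, which leaves the value of each uncertain.

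Carbon metabolism showed paralogs that moved apart. TDH3, the main glyceraldehyde-3-phosphate dehydrogenase, had 30390, 29676 and 30393 CPM in fes1ΔS, against 25478, 22221 and 24161 CPM in WT (log2 0.33). TDH2, a closely related copy, had 4450, 3409 and 3763 CPM in fes1ΔS, against 6027, 5053 and 5800 CPM in WT (log2 -0.54). Neither gene's groups overlapped, and the copies are similar enough that the division of their reads is uncertain. ENO2 and PGK1, later enzymes of glycolysis, rose by 0.38 and 0.41, and of the 23 genes of glycolysis and fermentation 4 rose and 3 fell, with a median of -0.03, and without WT replicate 1 the count that fell was 1. Hexose transporters differed as well: HXT1, the low-affinity transporter, had 265, 225 and 253 CPM in fes1ΔS, against 361, 376 and 395 CPM in WT (log2 -0.61), whereas HXT4, of higher affinity, had a log2 fold change of 0.83 and MTH1, a repressor of HXT genes, 0.75.

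Of the 12 genes of translation elongation and its folding factor, 6 rose and 6 were not called. ZPR1, the dedicated folding factor of elongation factor eEF1A, had 647, 660 and 667 CPM in fes1ΔS, against 325, 340 and 282 CPM in WT (log2 1.06, SE 0.06, edgeR adjusted p = 2.71e-10). TEF2, a gene of eEF1A, had 6189, 6349 and 6368 CPM in fes1ΔS, against 5172, 4892 and 5063 CPM in WT (log2 0.32). The libraries of each strain lay close together, the groups did not overlap, and both genes were called. With EFB1 (0.32) and HYP2 (0.34), further elongation factor genes, the list had 0 genes that fell, a median of 0.25 and between 4 and 6 genes called without a library. TEF2 has a near-identical copy, so its own value is uncertain.

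Ribosome genes were close to the background. Of 138 ribosomal protein genes 2 rose and 4 fell, 1.45% and 2.9%, beside 3.22% and 3.44% over all genes, and their median was 0.02. Without WT replicate 1 or fes1ΔS replicate 2, 0 rose, and DESeq2 called 7 lower. RPS22B was the exception with the smallest adjusted p, at 193, 199 and 193 CPM in fes1ΔS, against 278, 298 and 301 CPM in WT (log2 -0.58, edgeR adjusted p = 1.88e-07). Among 114 genes of ribosome biogenesis 1 rose (7 without WT replicate 2), 2 fell (none without WT replicate 3 or fes1ΔS replicate 1 or 2) and the median was 0.00. ESF1, a processing factor of ribosomal RNA, was the 1 that rose (log2 0.41).

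Cell wall, sterol and respiratory genes gave few calls. SED1, a structural cell wall protein, had 1828, 1990 and 1887 CPM in fes1ΔS, against 1246, 1233 and 1554 CPM in WT (log2 0.50), with WT replicate 3 the highest of its group. Of 27 cell wall genes 4 rose and 1 fell, with a median of 0.08. The shares were 14.8% and 3.7%, beside 3.22% and 3.44% over all genes. In each fit without a library fewer rose, between 1 and 3. Of 28 ergosterol genes 3 fell (10.7%, beside 3.44% over all genes), with a median of -0.08. The count was 1 without WT replicate 1 or fes1ΔS replicate 2 or 3. CYB2, a mitochondrial lactate dehydrogenase, had 12.5, 11.9 and 8.38 CPM in fes1ΔS, against 2.93, 2.59 and 4.44 CPM in WT (log2 1.73). It was 1 of only 2 called among 50 genes of the TCA cycle and respiration, where the median was 0.05. Both rose and made up 4% of the list, beside 3.22% called higher over all genes. Without WT replicate 2, 4 genes of that list fell, and the count that rose was 1 in 4 of the 6 fits without a library, those that kept WT replicate 2 and fes1ΔS replicate 1.

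Of the called genes, 106 higher and 118 lower belonged to none of the lists. LST8, a subunit of the TOR complexes, had 135, 132 and 134 CPM in fes1ΔS, against 77.7, 71.4 and 68.1 CPM in WT (log2 0.88). SGT2, a cochaperone of the pathway that inserts tail-anchored proteins, had 1107, 1053 and 1082 CPM in fes1ΔS, against 654, 617 and 632 CPM in WT (log2 0.77). ADR1, an activator of genes for growth without glucose, had 79.3, 83.3 and 80.4 CPM in fes1ΔS, against 42.8, 43.5 and 40.4 CPM in WT (log2 0.94). The replicates of all 3 were tight and their groups far apart. TAH11, a replication licensing factor, APA1, a nucleotide phosphorylase, and KSP1, a protein kinase, rose by 0.93, 0.82 and 0.75. TAH11 is the next gene to SSC1 (0.72) in the R64 annotation. SSC1 rose less than 2-fold, so this pair is not among the neighbours described below. BSC5, of unknown function, rose by 1.61, and ROQ1, a stress-induced regulator of the ubiquitin ligase Ubr1 that was chosen after its value was seen, rose by 1.31.

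On the lower side, the genes outside the lists changed less. GRE2, a methylglyoxal reductase, had 119, 95 and 95.7 CPM in fes1ΔS, against 198, 154 and 218 CPM in WT (log2 -0.88), and ARI1, a related reductase, had a log2 fold change of -0.68. ELO1, a fatty acid elongase, had 124, 121 and 120 CPM in fes1ΔS, against 191, 170 and 165 CPM in WT (log2 -0.53). None of these overlapped between the groups, which for GRE2 was a condition of being named. VMR1, a vacuolar transporter, fell by 0.83, CTR2, a vacuolar copper transporter, by 0.49, and POL30, the sliding clamp of DNA replication, by 0.33. HO, the mating-type switching endonuclease, fell by 0.42.

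Several small but clear changes lay beside the strongly induced genes. The 37 genes at least 2-fold higher had 54 tested neighbours that were not among them, of which 6 were called higher and 5 lower, with a median log2 fold change of -0.03, beside 3.22% and 3.44% called over all genes. By the R64 annotation, 9 of these neighbours are divergent, starting from the same intergenic stretch and read the other way. Of these 9, 5 were called higher and 0 lower, with a median of 0.32, whereas of the 13 convergent neighbours 0 were called higher and 2 lower, with a median of -0.13. The convergent ones called lower were MMS4 beside FES1 and CIN5 beside STI1. The divergent ones called higher were LST8 beside SIS1, YAR1 (0.52) beside HSP82, YGR210C (0.57) beside ZPR1, EFB1 beside SSA1, and PDR18 (0.79) beside BSC5. PDR18 kept its call in 2 of the 6 fits without a library, with an adjusted p from 0.0391 to 0.248 by edgeR, and the other 4 in all of them. The neighbours and their orientation were looked at after the values were seen.

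Few of these neighbours that lie on the same strand were called. Genes that were themselves at least 2-fold higher are not among them, such as YNR068C (1.59), which lies beside BSC5 (1.61) on the same strand. Of 13 downstream of the strong gene 0 were higher and 2 lower, with a median of -0.03, and of 19 upstream of it 1 was higher and 1 lower, with a median of -0.01. The 1 higher was NPL4 beside SSE2 (0.23), a cofactor of the ATPase Cdc48, and its call held in 3 of the 6 fits without a library. Among those lower was PAU12 beside MAL12 (-0.95), a member of a large gene family whose separate value is uncertain. CIN2, a tubulin folding factor that lies downstream of HSP82, had 9.68, 10.3 and 9.49 CPM in fes1ΔS, against 22.3, 24.9 and 20.9 CPM in WT (log2 -1.21, edgeR adjusted p = 2.10e-07). VPS62, a vacuolar sorting gene upstream of BTN2, had 34.3, 29.1 and 30.7 CPM in fes1ΔS, against 51.2, 47 and 48.7 CPM in WT (log2 -0.64, edgeR adjusted p = 2.54e-05). In both, the groups were fully separate, and CIN2 was the only called gene of the 10 in the tubulin folding list, whose median was -0.09. Whether reads of the strong neighbour were counted for these genes, or the other way round, was not tested. The medians of the 16 chromosomes all lay between -0.03 and 0.03.

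fes1ΔS was also compared with fes1ΔL, the strain whose label names a deletion of the L form. Here 158 genes were called higher (2.76%) and 118 lower (2.06%), and all 17 Hsf1 targets were called higher, with a median of 1.38. The count lower was 66 without fes1ΔS replicate 2, 75 without fes1ΔL replicate 2 and 72 without fes1ΔL replicate 3. fes1ΔL against WT gave 4 called genes (0.0699%). Both comparisons of fes1ΔS rest on its same 3 libraries, so their values are given side by side only. SSA4 had a log2 fold change of 3.43 against WT and 3.52 against fes1ΔL, HSP82 had 2.09 and 2.15, FET3 had -0.82 and -0.85, and IMD2 had -2.04 and -2.15.

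Against the libraries labelled fes1Δ, 71 genes were higher in fes1ΔS (1.24%) and 70 lower (1.22%). SSA4, which is not in the Hsf1 list, was lower in fes1ΔS, by 1.00 on the log2 scale (edgeR adjusted p = 3.80e-08), as were HSP104 and BTN2, both at -0.46, and HSP78 at -0.35, and the other 14 Hsf1 targets of the list were not called. SSE2 was higher in fes1ΔS, at 0.68 (edgeR adjusted p = 0.00387), as were HSP60 at 0.26 and HSP30, a membrane heat shock protein, at 0.60. HSP31 was lower in fes1ΔS than in these libraries, at -0.61, and so was ELO1, at -0.52. Of the iron genes, CCC2, FRE3 and ENB1 were higher in fes1ΔS than in the libraries labelled fes1Δ, at 0.40, 0.69 and 0.52 (edgeR adjusted p = 0.00211, 0.00709 and 0.0453).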

How the data were processed

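Poly(A) RNA of yeast was sequenced from stranded libraries. The authors deposited whole-number counts per gene, without normalization per the file headers and values, and FPKM values (scaled by gene length and depth) for the same 12 libraries at 25 °C. The submitters' processing notes name TopHat2 2.0.4, Cufflinks 2.1.1, HTSeq 0.6.1, Picard 1.29, bcl2fastq 1.8.3 and CASAVA, and genome build sacCer2; the settings are not given in the sources used here. Sample columns were identified by their names. A further 12 columns, those of the heat-shock tables, match no sample's label and were not used, so the heat-shocked samples were not analysed here. FPKM was used only for the 3629 genes with 12 values; the 3501 with 24 values were left out.

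Counts of the 12 libraries were tested in 1 edgeR 4.0.16 fit (R 4.3.3; TMM factors, default filter on expression by group, robust quasi-likelihood F test), with strain as the only term. Adjusted p-values are Benjamini-Hochberg over 5719 genes, and SE and 95% intervals come from that fit. CPM values use TMM-scaled library sizes. TMM factors ran from 0.964 to 0.968 in fes1ΔS and from 1.025 to 1.041 in WT. Total counts ran from 7608550 to 10246711, and 3 counts in a WT library are worth 0.322 to 0.375 CPM without the TMM factor. In counts simulated from the real means for fes1ΔS against WT (5688 genes tested), 97% of 100 genes changed 2-fold and 95% of 100 changed 1.5-fold were called, with 5 false calls. The changed genes were drawn only from those with a WT mean of at least 5 CPM, so these shares do not cover genes at lower levels.

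Named genes are FES1, up to 15 called genes from either end of the fold change order (a mean of at least 10 CPM in a group, replicates not overlapping), up to 8 called genes in each direction outside the lists, up to 4 of each list by adjusted p, and members of the Hsf1, Hsp70, iron, phosphate, FES1, mating-type and marker lists. Chosen only once their values were known were the others (ERJ5, HLJ1, HSP10, HSP12, HSP30, HSP31, HSF1, HAC1, SBA1, CDC37, CNS1, TPS1, TSA1, ROQ1, YAR1, YGR210C, YNR068C, PDR18, PAU12, FIG1, ACT1, RNR1, CLN2 and HTB2). For genes from either end of the fold change order, the lack of overlap was a condition of that choice and no separate result. The members and lists were chosen with earlier results of these data known. Names, gene order and strand came from the files and the RefSeq table of assembly R64, another build, so no coordinates or sequences are printed and the planned look at promoter motifs was not made. Alternatives were DESeq2 1.42.0, RLE size factors, all genes kept unfiltered, a replicate block, a fit restricted to both groups of a comparison, limma 3.58.1 on log2(FPKM + 1) where the mean reached 1 FPKM, and each library left out in turn. An edgeR adjustment over the genes of the FPKM test alone was added after seeing the data.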

Additional observations from a re-analysis of the deposited data

How the results depend on the processing

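No named gene that was called changed direction. Of 260 named genes 22 changed sign in some alternative, none of them called with either sign. With 1 library left out their log2 fold changes ran from -0.03 to 0.10 for ECM10, from -0.51 to 0.09 for FIT1, from -0.01 to 0.08 for GRX4, from -0.11 to 0.00 for STE6, from -0.04 to 0.03 for PHO87, from -0.01 to 0.11 for PHO90, from -0.01 to 0.13 for PHO3, from -0.25 to 0.00 for PHO4, from -0.05 to 0.04 for PHO85, from -0.01 to 0.07 for PHO80, from -0.03 to 0.06 for VTC2, from -0.17 to 0.01 for VTC5, from -0.21 to 0.04 for GIT1, from -0.22 to 0.04 for PHM7, from -0.14 to 0.16 for PHM8, from -0.04 to 0.12 for SIF2, from 0.00 to 0.08 for LYS2, from -0.01 to 0.05 for CAN1, from 0.00 to 0.07 for PRE1 and from -0.04 to 1.07 for HSP12. By limma on FPKM they were -0.03 for ECM10, -0.08 for GRX4, -0.02 for PHO3, -0.08 for VTC2, -0.05 for PHM8, -0.02 for VPS15, -0.05 for SIF2, -0.03 for LYS2, -0.08 for CAN1, -0.07 for CDC37 and -0.04 for PRE1, and by DESeq2 0.00 for PHM8. Of the 381 genes called, 195 were called in all 11 alternatives that use counts, 113 of them higher and 82 lower, and so were 39 of the 50 changed at least 2-fold. With limma on log2(FPKM + 1), over 2819 genes, 58 were called higher, 150 lower and 21 at least 2-fold against WT, and 57 higher and 127 lower against fes1ΔL. Adjusted over the 2682 genes of that test that passed the count filter, edgeR called 94 higher, 102 lower and 25 at least 2-fold against WT, and 78 higher and 56 lower against fes1ΔL, so limma called fewer genes higher and more lower than edgeR did there. The cause was not tested. A fit of only the 2 groups gave 240 higher and 224 lower against fes1ΔL. With 1 library left out, the count against WT ranged from 135 to 182 higher, 115 to 228 lower and 44 to 54 at least 2-fold, that against fes1ΔL from 111 to 132 higher and 66 to 92 lower, and 7 to 11 reductive iron genes fell. Each of these fits holds 1 library fewer. DESeq2, RLE size factors and no expression filter moved none of these totals by over 1.5 times. The replicate numbers do not pair the libraries: same-numbered fes1ΔS and WT libraries correlated at 0.05, 0.17 and -0.13, and a replicate block gave 402 calls against WT in place of 381, with 197 higher and 205 lower. Under the block FRE1 was called (adjusted p = 0.0175 by edgeR), GSC2, a cell wall gene, was not (0.063), and ribosomal protein genes called lower were 7 in place of 4.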

Other observations

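ACT1, the actin gene that is often used as a constant reference in yeast RNA measurements, was among the called genes. It had 3408, 3246 and 3314 CPM in fes1ΔS, against 2661, 2518 and 2461 CPM in WT, a log2 fold change of 0.38 (SE 0.05, edgeR adjusted p = 8.47e-05). All 3 fes1ΔS libraries lay above all 3 WT libraries, and against fes1ΔL the log2 fold change was 0.39. ACT1 belongs to none of the lists and was chosen after its value was seen.

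A further 3 genes, outside the lists and picked after their values were seen because they were lower, stand for no group. RNR1, the large subunit of ribonucleotide reductase, had 541, 523 and 516 CPM in fes1ΔS, against 606, 673 and 635 CPM in WT (log2 -0.28, edgeR adjusted p = 0.00491). CLN2, a G1 cyclin, had 146, 156 and 159 CPM in fes1ΔS, against 177, 198 and 192 CPM in WT (log2 -0.30, edgeR adjusted p = 0.00498), and the histone gene HTB2 had a log2 fold change of -0.27. The groups did not overlap in these 3 genes.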
